A study of Mus musculus with 2 samples.

Results

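NMDA receptors are glutamate-gated cation channels assembled from subunits of the Grin gene family. The 6 genes described here are Grin1, Grin2a, Grin2b, Grin2c, Grin2d and Grin3a, taken by symbol from the 32285 genes of the deposited count matrices. They were followed in single cells of wild-type mice, in 2 libraries (replicates 1 and 2) that form 1 group. Embryos had been dated at embryonic day 12 with EdU, a thymidine analogue that marks cells in S phase, and the pallium was dissected at postnatal day 3. The tissue was pooled, and live EdU-bright cells were sorted before droplet capture. The series' design also names chicken cells, which were not analysed here. With no treated group, the comparisons run between cell groups within these libraries.

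A working NMDA receptor needs GluN1, the product of Grin1, which binds glycine or D-serine. GluN2 subunits, from Grin2a to Grin2d, bind glutamate and set how fast the channel closes and how strongly magnesium blocks it. GluN3A, from Grin3a, binds glycine, lowers calcium entry and is known as a subunit of the young forebrain. In rodent cortex, GluN2B is the main GluN2 subunit before birth and GluN2A is added as synapses mature, while glial precursors carry NMDA receptors as well.

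All 6 genes lie on the minus strand in GENCODE M21 (GRCm38) and are protein coding: Grin1 at chr2:25291181-25319187, Grin2a at chr16:9567898-9995560, Grin2b at chr6:135713233-136173511, Grin2c at chr11:115249169-115267243, Grin2d at chr7:45831883-45878378 and Grin3a at chr4:49661611-49845744. RefSeq promoters (GRCm38.p6) matched 3 of the 6 genes. Their 250 bases before the start site are shown because Grin1, the subunit every receptor needs, was measured well above background in most cell groups, while Grin2c and Grin2d had few UMIs. Capitals mark the E-box CACGTG and the GC box GGGCGG, searched on both strands.
Grin1, chr2:25319188-25319437, minus strand: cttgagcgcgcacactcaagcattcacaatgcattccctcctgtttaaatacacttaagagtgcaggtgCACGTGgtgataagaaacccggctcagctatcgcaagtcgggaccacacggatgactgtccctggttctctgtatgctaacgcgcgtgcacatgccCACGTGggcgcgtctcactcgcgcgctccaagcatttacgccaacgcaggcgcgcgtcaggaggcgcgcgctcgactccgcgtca
Grin2c, chr11:115267244-115267493, minus strand: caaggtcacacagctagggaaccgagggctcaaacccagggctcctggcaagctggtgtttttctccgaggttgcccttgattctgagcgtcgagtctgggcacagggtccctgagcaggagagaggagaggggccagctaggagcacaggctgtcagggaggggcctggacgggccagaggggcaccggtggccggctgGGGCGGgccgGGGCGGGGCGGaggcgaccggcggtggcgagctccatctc
Grin2d, chr7:45866682-45866931, minus strand: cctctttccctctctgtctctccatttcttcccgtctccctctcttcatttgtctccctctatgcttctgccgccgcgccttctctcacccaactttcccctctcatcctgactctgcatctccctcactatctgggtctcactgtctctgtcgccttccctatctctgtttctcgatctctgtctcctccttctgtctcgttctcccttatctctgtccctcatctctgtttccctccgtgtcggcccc
The Grin1 window held 2 E-boxes and no GC box, the Grin2c window held 3 GC boxes, of which a pair overlap, and the Grin2d window held neither. None of the 3 windows held TATAAA. Over 32851 promoters of the same length, 6.02% held the E-box, 32.7% the GC box and 12.4% TATAAA. GC content was 58.8% for Grin1, 68.8% for Grin2c and 54.4% for Grin2d, against a median of 52.4% over all promoters. The RefSeq start of Grin2d lies inside the GENCODE gene.

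Replicate 1 held 97091962 UMIs (unique molecular identifiers, 1 per captured transcript end) in 13858 barcodes and replicate 2 held 108903409 UMIs in 14513 barcodes. Of these barcodes, 11228 (81.0%) and 10965 (75.6%) had at least 500 genes and at most 10% mitochondrial UMIs. The libraries had 62 barcodes in common, 40 of them among the kept cells. Kept cells were gated by UMIs of marker genes outside the Grin family, with at most 1 UMI of some of the other groups' markers. No gate limited C1qa, and only the Neurod2/Neurod6 and C1qa gates limited Reln. The Pdgfra gate took 3319 and 3447 cells, the Aqp4 gate 1170 and 1196, the Sst gate 16 and 15, the Adarb2 gate 146 and 167, the Reln gate 79 and 87, and the Neurod2/Neurod6 gate 826 and 887. Cells with C1qa, a microglial gene, served as the background for free RNA, with 126 and 143 cells. The other 49.4% and 45.8% of kept cells met no gate. Median depth ran from 2586 and 3121 UMIs in Sst cells to 17434 and 17419 in Reln cells. C1qa cells, at 11913.5 and 14140 UMIs, were deeper than all gates but Reln. Whether free RNA is a larger part of the UMIs of shallower cells was not tested.

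The gates were checked against marker lists, which include the gating genes. All 9 markers of oligodendrocyte precursors (OPCs) in Pdgfra cells, all 9 of astroglia in Aqp4 cells and all 7 of Cajal-Retzius cells in Reln cells, among them Trp73 at 219 and 229 CPM (UMIs per 1000000 UMIs of the cell group), lay over 2-fold above the median of the other gates. In Sst cells 6 of 7 markers of interneurons from the medial ganglionic eminence did so, with Lhx6 at 323 and 448 CPM. Adarb2 cells had all 8 markers of interneurons from the caudal eminence, but also all 6 of olfactory bulb neuroblasts, with Meis2 at 1668 and 1927 CPM and Vip at only 4.21 and 0.888 CPM, and all 5 markers of dividing cells. They are therefore called Adarb2 cells, not interneurons. Neurod2/Neurod6 cells had all 7 glutamatergic markers, with Slc17a6 at 105 and 124 CPM but Slc17a7, the transporter of mature cortical neurons, at 3.87 and 4.27 CPM. They also had all 3 markers of intermediate progenitors over 2-fold above the other gates' median, summing to 242 and 249 CPM, and 6 of 7 microglial markers, summing to 150 and 294 CPM. Reln cells had all 4 vascular markers over 2-fold, summing to 72.2 and 108 CPM. The part of these markers in the differences between gates was not tested.

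Grin1, the obligatory subunit gene, was highest in Reln cells and lowest in Aqp4 cells. Grin1 had 88.8 and 91.6 CPM in Reln cells, against 19.7 and 20.04 CPM in Neurod2/Neurod6 cells. It stood at 32.8 and 33.7 CPM in Pdgfra cells, 61.6 and 28.9 CPM in Sst cells (4 and 2 UMIs), 18.2 and 15.1 CPM in Adarb2 cells, and 3.57 and 3.54 CPM in Aqp4 cells. In C1qa cells it had 1.27 and 0.923 CPM. Reln cells were thus above every other gate in both libraries, Sst and Pdgfra cells overlapped, and Aqp4 cells were lowest of the 6 gates. By edgeR's quasi-likelihood test on UMIs summed per library and gate, adjusted over all genes by Benjamini-Hochberg, Grin1 was higher in Reln than in Neurod2/Neurod6 cells by 2.19 ± 0.14 on the log2 scale (log2 fold change ± SE, adjusted p = 1.04e-14). It was higher in Pdgfra cells by 0.65 ± 0.10 (edgeR adjusted p = 7.31e-07), while in Aqp4 cells it was lower, at -2.39 ± 0.17 (edgeR adjusted p = 2.62e-14). The difference was 0.85 ± 0.63 in Sst cells (edgeR adjusted p = 0.515) and -0.29 ± 0.26 in Adarb2 cells (edgeR adjusted p = 0.510), neither past the threshold of 0.05. Between the glial gates, Grin1 was higher in Pdgfra than in Aqp4 cells by 3.05 ± 0.12 (edgeR adjusted p = 1.66e-20). Grin1os, an antisense gene whose exons overlap Grin1, had at most 9 UMIs in any gate and library, and the sources used here do not state how reads were assigned by strand.

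**Figure D1:**
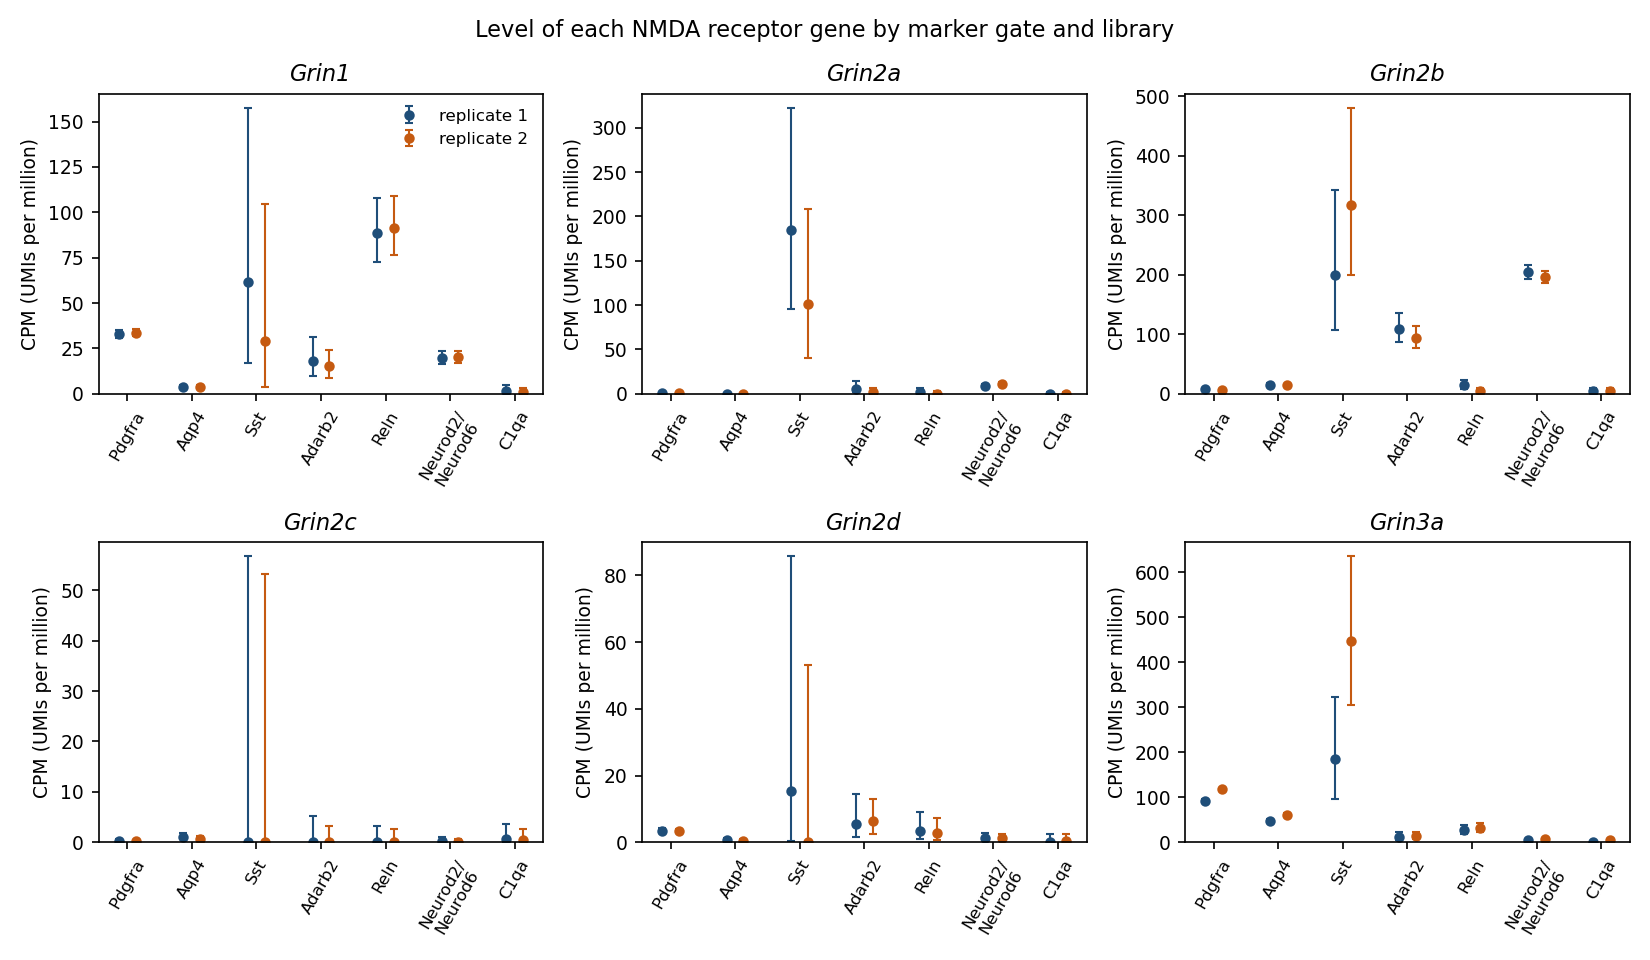
Level of each of the 6 genes (y axis, CPM, linear and starting at 0, a scale for each panel) in the 6 marker gates and in C1qa cells (x axis); points are the 2 libraries and bars are exact Poisson 95% intervals, which cover counting error only. Grin1 peaks in Reln cells, Grin2b in Sst and Neurod2/Neurod6 cells, and Grin3a in Sst and Pdgfra cells, with wide bars for the 31 Sst cells.

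Grin2b, the early glutamate-binding subunit, was highest in Sst and Neurod2/Neurod6 cells, followed by Adarb2 cells. It had 200.0 and 318 CPM in Sst cells and 109 and 94.2 CPM in Adarb2 cells, against 204 and 196 CPM in Neurod2/Neurod6 cells. Aqp4 cells had 15.0 and 14.7 CPM, Reln cells 13.9 and 4.93 CPM, and Pdgfra cells 7.88 and 6.58 CPM, with 4.44 and 5.08 CPM in C1qa cells. Sst cells and Neurod2/Neurod6 cells overlapped, Reln and Pdgfra cells overlapped, and replicate 2 of Reln cells lay between the C1qa values. Both libraries of Pdgfra cells lay inside the exact Poisson 95% intervals of C1qa cells, 1.79 to 9.16 and 2.53 to 9.08 CPM, so their Grin2b level was not told apart from free RNA. Against Neurod2/Neurod6 cells, Grin2b was lower in Pdgfra cells at -4.88 ± 0.07 (edgeR adjusted p = 2.37e-32), in Reln cells at -4.47 ± 0.18 (edgeR adjusted p = 7.07e-20) and in Aqp4 cells at -3.67 ± 0.07 (edgeR adjusted p = 2.00e-28), on the log2 scale. Without replicate 1 the Reln difference was -5.31. Here and below, a log2 fold change with 1 replicate left out is a difference of log2 CPM with a small added count, not a fit. The added count pulls differences on few UMIs towards 0, so such a value can move for that reason alone. In Adarb2 cells Grin2b was lower, at -0.99 ± 0.11 (edgeR adjusted p = 1.49e-08), and in Sst cells the difference was 0.06 ± 0.27 (edgeR adjusted p = 0.921). Between the glial gates it was the 1 gene of the 5 tested that was lower in Pdgfra than in Aqp4 cells, at -1.22 ± 0.12 (edgeR adjusted p = 5.93e-11).

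Grin2a, the subunit of mature synapses, was most abundant in the few Sst cells. It had 185 and 101 CPM there (12 and 7 UMIs) and 5.61 and 1.78 CPM in Adarb2 cells, against 8.26 and 10.6 CPM in Neurod2/Neurod6 cells. Pdgfra cells had 0.765 and 1.06 CPM, Reln cells 2 and 0 UMIs, Aqp4 cells 2 UMIs in each library and C1qa cells none, where 0 UMIs allow up to 3 counts per library. The upper Poisson bounds of C1qa cells were 2.34 and 1.70 CPM. Grin2a in Pdgfra, Reln and Aqp4 cells was thus not told apart from free RNA. Sst cells were above all other gates in both libraries. Grin2a was higher in Sst than in Neurod2/Neurod6 cells by 3.58 ± 0.58 (edgeR adjusted p = 4.81e-05), with a difference of 2.84 without replicate 1. It was lower in Pdgfra cells, at -3.43 ± 0.30 (edgeR adjusted p = 1.43e-11). In Aqp4 cells, on 4 UMIs, it was lower, at -5.59 ± 0.50 (edgeR adjusted p = 2.20e-11). With the added count the difference was -4.22 without replicate 2 and -4.64 without replicate 1, not comparable in size with the fit. On the 2 UMIs of Reln cells the ratio to Neurod2/Neurod6 cells was 0.0816 (exact 95% interval 0.00977 to 0.301, counting error only), and the test passed (edgeR adjusted p = 0.000380). In Adarb2 cells the difference was -1.54 ± 0.63 (edgeR adjusted p = 0.0872). Pdgfra cells exceeded Aqp4 cells by 2.16 ± 0.70 (edgeR adjusted p = 0.00754), but by 1.46 with adjusted p = 0.139 when cells with Mki67 or Top2a UMIs were left out. With the added count the difference was 1.15 without replicate 2, on 2 UMIs in Aqp4 cells.

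The remaining GluN2 genes were scarce. Grin2d, a subunit of slow receptors known from interneurons and the young brain, had 3.39 and 3.35 CPM in Pdgfra cells, 5.61 and 6.22 CPM in Adarb2 cells (4 and 7 UMIs) and 3.48 and 2.82 CPM in Reln cells (4 UMIs each), against 1.41 and 1.18 CPM in Neurod2/Neurod6 cells. C1qa cells had 0 and 0.461 CPM, with upper Poisson bounds of 2.34 and 2.57 CPM. The levels in Neurod2/Neurod6 cells and in Aqp4 cells (0.641 and 0.402 CPM) were thus not told apart from free RNA. Against Neurod2/Neurod6 cells, Grin2d was higher in Pdgfra cells by 1.29 ± 0.38 (edgeR adjusted p = 0.00342) and in Adarb2 cells by 2.21 ± 0.68 (edgeR adjusted p = 0.0174). The difference in Reln cells was 1.28 ± 0.73 (edgeR adjusted p = 0.148) and in Aqp4 cells, with 7 and 5 UMIs, -1.21 ± 0.60 (edgeR adjusted p = 0.0696). Pdgfra cells exceeded Aqp4 cells by 2.50 ± 0.38 (edgeR adjusted p = 8.14e-07), and, with the added count, by 1.92 without replicate 2. The single Grin2d UMI of Sst cells gave a ratio of 5.81 to Neurod2/Neurod6 cells (exact 95% interval 0.139 to 37.4) and of 1.25 to Adarb2 cells (0.0289 to 8.57). Grin2c, known from cerebellar granule cells and astrocytes of the mature brain, had 9 and 10 UMIs in Pdgfra cells, 12 and 8 UMIs in Aqp4 cells and 1 and 0 UMIs in Neurod2/Neurod6 cells. It had no UMI in Sst, Adarb2 and Reln cells and 1 UMI in each library of C1qa cells. That is 0.299 and 0.286 CPM in Pdgfra cells and 1.10 and 0.644 CPM in Aqp4 cells, against 0.635 and 0.461 CPM in C1qa cells. With upper Poisson bounds of 3.54 and 2.57 CPM in C1qa cells, neither glial level was told apart from free RNA. The gene did not pass the filter on low counts. Its ratio to the 1 UMI of Neurod2/Neurod6 cells was 3.65 in Pdgfra cells (exact 95% interval 0.580 to 151) and 10.7 in Aqp4 cells (1.71 to 443). The Grin2c ratio of Pdgfra to Aqp4 cells was 0.341 (0.172 to 0.673, counting error only). Grin3b, the other GluN3 gene, had at most 6 UMIs in any gate and library.

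Grin3a was highest in Sst, Pdgfra and Aqp4 cells. It had 92.3 and 118 CPM in Pdgfra cells, 48.0 and 60.3 CPM in Aqp4 cells, 185 and 448 CPM in Sst cells (12 and 31 UMIs), 11.2 and 13.3 CPM in Adarb2 cells and 26.1 and 31.7 CPM in Reln cells, against 5.80 and 6.19 CPM in Neurod2/Neurod6 cells. C1qa cells had 0.635 and 4.15 CPM. The gates did not overlap, with the order Sst, Pdgfra, Aqp4, Reln, Adarb2 and Neurod2/Neurod6 cells in both libraries, and replicate 2 was higher than replicate 1 in each gate. Against Neurod2/Neurod6 cells Grin3a was higher by 5.42 ± 0.38 in Sst cells (edgeR adjusted p = 5.51e-12), by 4.05 ± 0.11 in Pdgfra cells (edgeR adjusted p = 3.32e-25), by 3.27 ± 0.13 in Aqp4 cells (edgeR adjusted p = 1.52e-20) and by 2.28 ± 0.26 in Reln cells (edgeR adjusted p = 6.60e-09). The Sst difference was 4.63 without replicate 2. In Adarb2 cells it was 1.03 ± 0.38 (edgeR adjusted p = 0.0558). Pdgfra cells exceeded Aqp4 cells by 0.78 ± 0.05 (edgeR adjusted p = 4.14e-15).

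**Figure D2:**
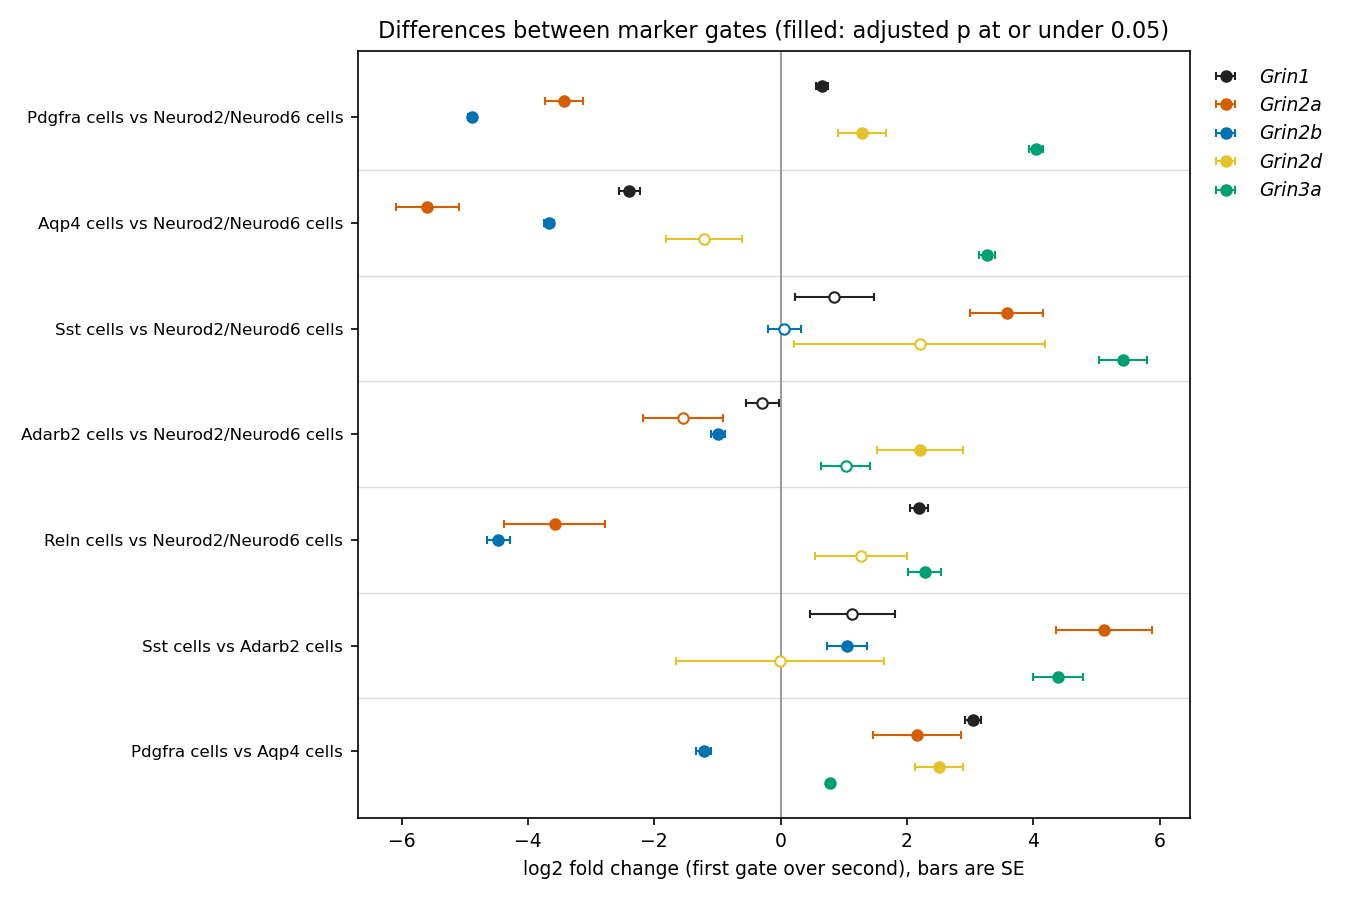
Log2 fold change of 5 of the 6 genes between marker gates (x axis, first-named gate over second), with bars for the SE and filled points where the edgeR adjusted p was at or under 0.05; Grin2c did not pass the filter on low counts. Grin2b and Grin3a lie on opposite sides of 0 for Pdgfra, Aqp4 and Reln cells against Neurod2/Neurod6 cells.

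Of the 6 genes, 5 passed the filter on low counts, a filter that a gene can pass through 1 gate alone. In Pdgfra against Neurod2/Neurod6 cells 3 of them were higher and 2 lower, where 68.2% of all 13023 genes tested passed the test (34.3% higher, 33.9% lower). In Aqp4 cells 1 was higher and 3 were lower, with 72.8% of all genes called (36.7% higher, 36% lower). In Reln cells 2 were higher and 2 lower, with 50.7% called (25.4% higher, 25.2% lower), and between Pdgfra and Aqp4 cells 4 were higher and 1 lower, with 68.7% called (34.9% higher, 33.8% lower). In these 4 comparisons most tested genes passed the test, so a count of Grin genes called is read against a high background. In Sst cells 2 were higher and none lower, with 7.61% of all genes called (2.79% higher, 4.82% lower), and in Adarb2 cells 1 was higher and 1 lower, with 20.2% called (8.89% higher, 11.3% lower). The share of calls that were higher depended on scaling, most in the thin gates. DESeq2 called 4260 genes higher and 3201 lower in Pdgfra cells, 4995 and 3514 in Aqp4 cells and 3461 and 2729 in Reln cells against Neurod2/Neurod6 cells, and 3173 and 3943 in Pdgfra against Aqp4 cells, where edgeR called 4548 and 4403. In Aqp4 against Neurod2/Neurod6 cells the median of all genes lay at 0.01 with edgeR and 0.15 with DESeq2. In Sst against Neurod2/Neurod6 cells edgeR called 363 genes higher and 628 lower, and DESeq2 called 765 higher and 297 lower. In Adarb2 cells edgeR called 1158 higher and 1478 lower, and DESeq2 1314 and 1042.

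Sst cells and Adarb2 cells, both GABAergic, were set against each other directly. Here 3 of the 5 genes were higher in Sst cells and none lower, with 7.66% of all genes called (2.93% higher, 4.74% lower). Grin2a was higher by 5.12 ± 0.76 (edgeR adjusted p = 1.39e-05) and Grin3a by 4.38 ± 0.40 (edgeR adjusted p = 2.15e-09), with 3.80 for Grin3a without replicate 2. Grin2b was higher by 1.05 ± 0.31 (edgeR adjusted p = 0.0306), a call that was lost with adjusted p = 0.106 in looser gates, 0.244 in stricter gates and 0.383 without dividing cells. Grin1 differed by 1.13 ± 0.68 (edgeR adjusted p = 0.386). The median of all genes lay at -0.45 on this scale, and at -0.62 in Sst against Neurod2/Neurod6 cells, with DESeq2 scaling at -0.04 and -0.07. Relative to that median, Grin3a was higher in Sst than in Neurod2/Neurod6 cells by 6.04 with edgeR and 5.70 with DESeq2, and Grin2a by 4.20 and 3.88. In this comparison with Adarb2 cells edgeR called 381 genes higher and 617 lower, and DESeq2 724 and 384. A gate on Lhx6 in place of Sst, chosen after the data had been seen, gave a Grin3a difference of 4.39 ± 0.38 (edgeR adjusted p = 1.09e-09) and a Grin2a difference of 2.53 ± 0.61 (edgeR adjusted p = 0.00916) from Neurod2/Neurod6 cells.

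The mix of subunits was read as each gene's share of the UMIs of the 6 genes. One UMI stands for a captured transcript end, so the shares were not divided by length, and differences in capture between genes stay in them. Grin3a made up 67.2% and 72.3% in Pdgfra cells and 70.1% and 75.7% in Aqp4 cells, against 2.42% and 2.64% in Neurod2/Neurod6 cells. The glial gates parted in the rest of the mix. Grin1 made up 23.9% and 20.7% in Pdgfra cells but 5.21% and 4.44% in Aqp4 cells, whereas Grin2b made up 5.73% and 4.05% in Pdgfra cells and 21.9% and 18.4% in Aqp4 cells. Of these, Grin2b in Pdgfra cells was not told apart from free RNA. Grin1 in Aqp4 cells was close to it, at 3.57 and 3.54 CPM against upper Poisson bounds of 4.59 and 3.33 CPM in C1qa cells. Grin2b dominated Adarb2 cells, with 72.9% and 72.1%, and Neurod2/Neurod6 cells, with 85.2% and 83.8%. Reln cells were the gate led by Grin1, with 66.2% and 69.9%, followed by Grin3a with 19.5% and 24.2%. Sst cells were mixed, with Grin3a at 28.6% and 50.0%, Grin2b at 31.0% and 35.5% and Grin2a at 28.6% and 11.3%, on 42 and 62 UMIs.

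Because every receptor needs GluN1, the UMIs of the other genes per Grin1 UMI show how the obligatory subunit stood against its partners in RNA. The ratio was 3.19 and 3.82 in Pdgfra cells, 18.2 and 21.5 in Aqp4 cells, 7.23 and 7.65 in Adarb2 cells, and 0.510 and 0.431 in Reln cells, against 11.2 and 10.7 in Neurod2/Neurod6 cells. The Aqp4 ratio rests on 39 and 44 Grin1 UMIs, close to the level of free RNA. Reln cells were thus the gate in which Grin1 UMIs outnumbered those of the other 5 genes. In Sst cells the ratio was 9.50 and 30.0, on 4 and 2 Grin1 UMIs. Summed over the 6 genes, the level was highest in the 31 Sst cells, at 646 and 895 CPM. It was 138 and 163 CPM in Pdgfra cells, 68.5 and 79.7 CPM in Aqp4 cells, 150 and 131 CPM in Adarb2 cells and 134 and 131 CPM in Reln cells, against 239 and 234 CPM in Neurod2/Neurod6 cells and 6.98 and 11.1 CPM in C1qa cells.

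**Figure D3:**
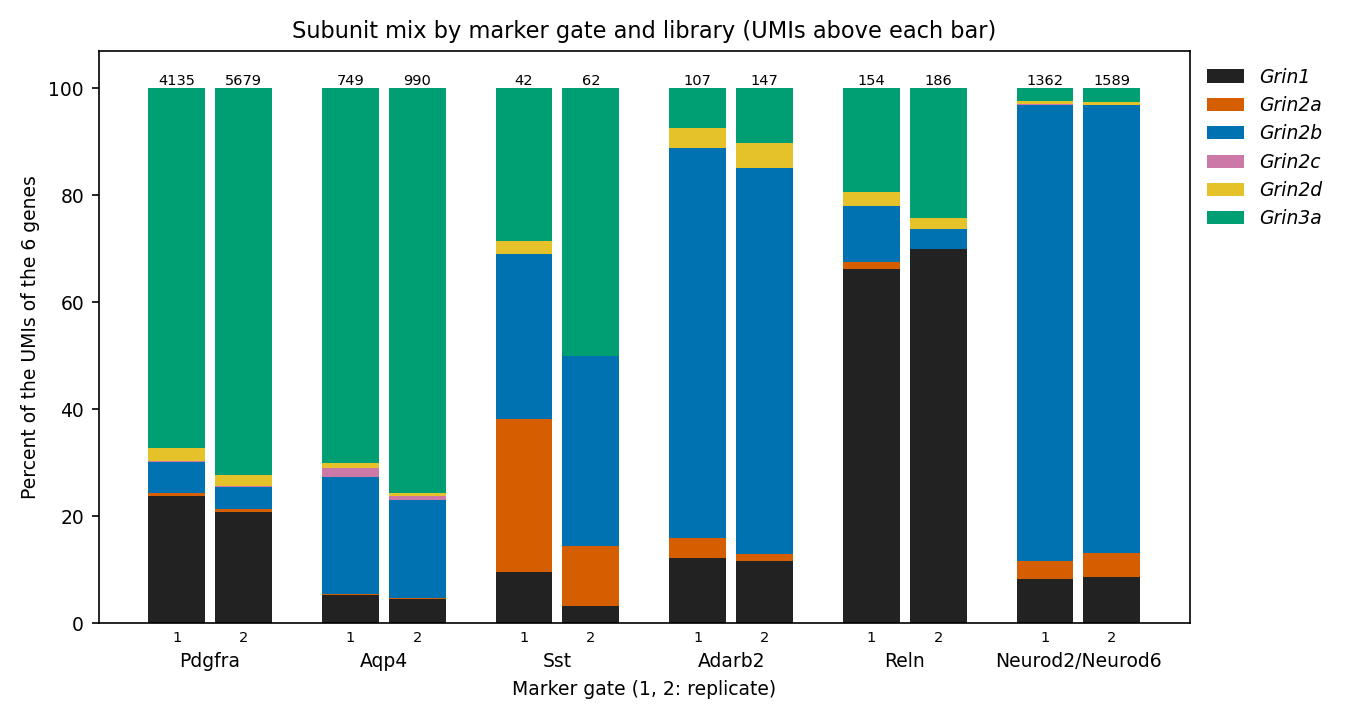
Share of each gene among the UMIs of the 6 genes (y axis, percent) by marker gate and library (x axis), with the number of UMIs above each bar. Grin3a fills over 67% of the bars of Pdgfra and Aqp4 cells, Grin2b over 83% of those of Neurod2/Neurod6 cells, and Grin1 over 66% of those of Reln cells.

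Shares of cells with a UMI were compared after thinning every cell to 2000 UMIs. Grin3a was seen in 1222 of 6461 Pdgfra cells, or 18.9% (exact Clopper-Pearson 95% interval 18.0 to 19.9%), and in 252 of 2299 Aqp4 cells, or 10.96% (9.71 to 12.3%). It was seen in 13 of 1660 Neurod2/Neurod6 cells, or 0.783%, and in 1 of 262 C1qa cells, or 0.382% (0.00966 to 2.11%), so the Neurod2/Neurod6 share lies inside the background interval. Grin1 was seen in 35 of 165 Reln cells, or 21.2% (15.2 to 28.2%), 7.41% of Pdgfra cells and 0.739% of Aqp4 cells, against 3.67% of Neurod2/Neurod6 cells and 0.382% of C1qa cells. The Aqp4 share of Grin1 therefore lies inside the background interval as well. Grin2b was seen in 21.4% of 276 Adarb2 cells and 3.26% of Aqp4 cells, against 30.3% of Neurod2/Neurod6 cells (28.1 to 32.6%) and 0.763% of C1qa cells (0.0926 to 2.73%). Grin2b was seen in 1.36% of Pdgfra cells and 2.42% of Reln cells, both inside the C1qa interval. Of 25 Sst cells deep enough, 13 had Grin3a, 9 had Grin2b, 7 had Grin2a and 2 had Grin1. Without thinning, Grin3a was seen in 54.6% of Pdgfra cells and Grin2b in 62.7% of Neurod2/Neurod6 cells, at median depths of 8586 and 9413 UMIs in Pdgfra cells and 6378 and 7130 UMIs in Neurod2/Neurod6 cells.

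**Figure D4:**
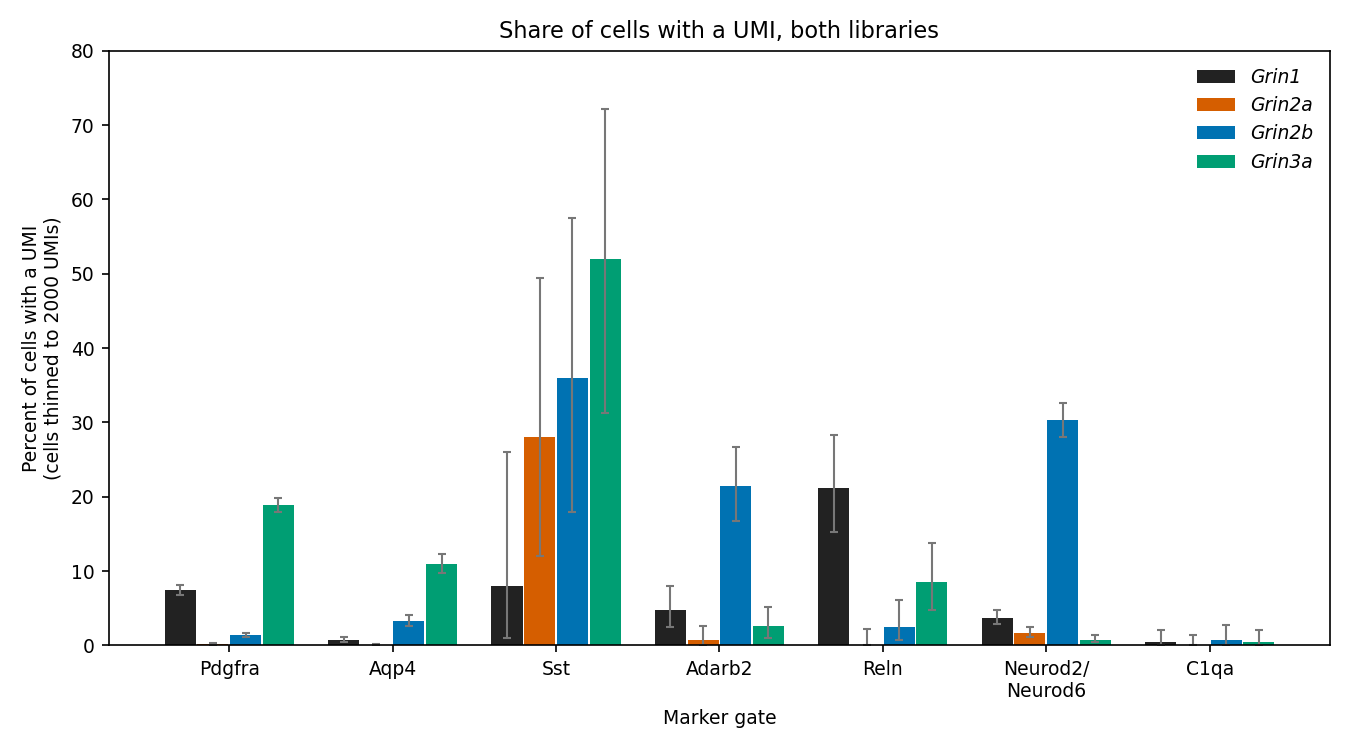
Share of cells with at least 1 UMI (y axis, percent) of 4 of the genes in each marker gate (x axis), after thinning to 2000 UMIs per cell, over both libraries; bars carry exact Clopper-Pearson 95% intervals. C1qa cells give the background, under 1% for each gene, and the intervals of the 25 Sst cells are wide.

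Gates were then split by division and by Eomes. Dividing cells were those with at least 2 UMIs of Mki67 and Top2a, non-dividing cells those with none. In Pdgfra cells Grin1 had 24.3 and 27.3 CPM in dividing cells, against 37.1 and 37.0 CPM in non-dividing cells, without overlap. It fell by 0.56 ± 0.09 on the log2 scale in dividing cells (edgeR adjusted p = 4.03e-06), the one gene of the 5 that passed the test, where 35.7% of 13420 genes did (13.9% higher, 21.7% lower). Grin3a stood at 93.5 and 117 CPM in dividing and 91.7 and 115 CPM in non-dividing Pdgfra cells, a difference of -0.01 ± 0.06 (edgeR adjusted p = 0.873). Differences were 0.96 ± 0.51 for Grin2a (edgeR adjusted p = 0.142), -0.07 ± 0.17 for Grin2b (edgeR adjusted p = 0.796) and 0.21 ± 0.29 for Grin2d (edgeR adjusted p = 0.603), and Grin2c had 2 UMIs in dividing and 12 in non-dividing Pdgfra cells. Dividing Pdgfra cells were deeper, with median depths of 12616.5 and 13092 UMIs, against 7959.5 and 8717 UMIs in non-dividing ones, and the part of depth in these differences was not tested. edgeR called 1872 genes higher and 2918 lower in dividing Pdgfra cells, and DESeq2 1596 and 1101.

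In Aqp4 cells 2 of the 5 genes were lower in dividing cells and none higher, with 31.6% of all genes called (9.71% higher, 21.9% lower). Grin3a had 40.1 and 45.4 CPM in dividing cells, against 51.2 and 67.0 CPM in non-dividing cells. It was lower, at -0.62 ± 0.12 (edgeR adjusted p = 0.000125), but at -0.28 with adjusted p = 0.159 among cells of 3000 to 20000 UMIs. Grin1 had 0 and 4 UMIs in dividing cells and 34 UMIs in each library of non-dividing cells, and was lower, at -2.38 ± 0.57 (edgeR adjusted p = 0.00141). Even in non-dividing cells Grin1 was close to free RNA, at 4.55 and 4.13 CPM against upper Poisson bounds of 4.59 and 3.33 CPM in C1qa cells. The Grin1 difference was -1.54 with adjusted p = 0.0950 in stricter gates, -1.23 without replicate 1 and -3.71 without replicate 2. The last value rests on 0 UMIs in dividing cells, so the added count sets its size. Grin2b differed at -0.36 ± 0.23 (edgeR adjusted p = 0.233), and dividing Aqp4 cells had 1, 3 and 2 UMIs of Grin2a, Grin2c and Grin2d, against 3, 16 and 9 UMIs in non-dividing ones. Dividing Aqp4 cells were deeper too, with medians of 13600 and 14666 UMIs, against 8538 and 9488 UMIs. The median of all genes lay at -0.19 in this comparison (-0.12 with DESeq2), so Grin3a was lower than the median gene at -0.43 with either tool. edgeR called 1303 genes higher and 2935 lower, and DESeq2 1432 and 1838. The excess of lower genes was not seen in stricter gates, with 1608 higher, 1035 lower and a median of -0.01, or among cells of 3000 to 20000 UMIs, with 1583 higher, 1077 lower and a median of -0.02.

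Among Neurod2/Neurod6 cells, those with at least 2 UMIs of Eomes, a gene of intermediate progenitors, were set against those with none. They had less Grin2b, Grin1 and Grin2a. Grin2b had 60.9 and 79.5 CPM in Eomes-positive cells, against 234 and 232 CPM in Eomes-negative cells. Grin1 had 4.16 and 6.84 CPM in Eomes-positive cells, against 23.0 and 23.6 CPM, and Grin2a had 0 and 4 UMIs, against 47 and 68 UMIs. No pair overlapped. In Eomes-positive cells Grin2b was lower, at -1.72 ± 0.13 (edgeR adjusted p = 5.21e-12), Grin1 at -2.04 ± 0.36 (edgeR adjusted p = 8.68e-05) and Grin2a at -2.54 ± 0.69 (edgeR adjusted p = 0.0104), 3 of the 5 genes, with 13.4% of all genes called (6.8% higher, 6.61% lower). The Grin2a call was lost in stricter gates with adjusted p = 0.0611, and its difference was -4.72 without replicate 2. That value rests on 0 UMIs in Eomes-positive cells, so the added count sets its size. Grin3a had 8.31 and 11.1 CPM in Eomes-positive cells, against 5.18 and 4.72 CPM in Eomes-negative cells, a difference of 0.96 ± 0.42 (edgeR adjusted p = 0.138). Grin2d had 3 UMIs in Eomes-positive and 12 in Eomes-negative cells, and Grin2c 0 and 1. edgeR called 913 genes higher and 887 lower, and DESeq2 1093 and 666.

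**Figure D5:**
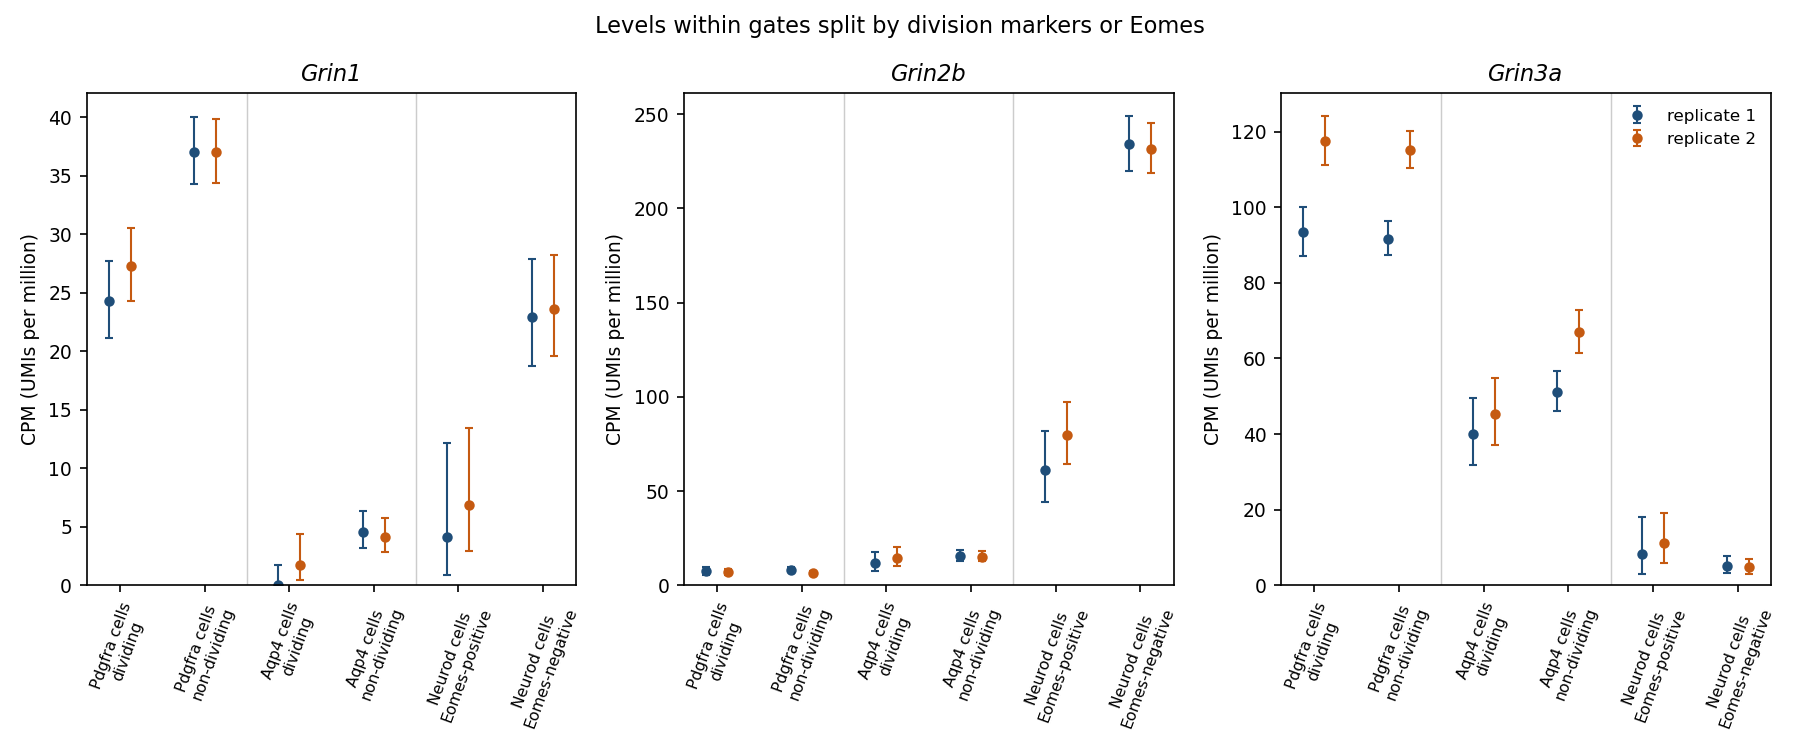
Levels of Grin1, Grin2b and Grin3a (y axis, CPM, starting at 0, a scale for each panel) in dividing and non-dividing Pdgfra and Aqp4 cells and in Eomes-positive and Eomes-negative Neurod2/Neurod6 cells (x axis); points are the 2 libraries, bars exact Poisson 95% intervals of the counts. Grin1 is lower in the dividing or Eomes-positive cells of each pair, while Grin3a is level between dividing and non-dividing Pdgfra cells. In Aqp4 cells the Grin1 levels are close to free RNA.

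Genes that anchor, modify or supply NMDA receptors were read from a list of 40, of which 38 were tested: scaffolds, kinases and signalling proteins, auxiliary and membrane partners, enzymes and transporters of glycine and D-serine, and glutamate uptake. In Pdgfra against Neurod2/Neurod6 cells 18 were higher and 14 lower, with a median log2 fold change of 0.08 over the list and 0.00054 over all genes, of which 34.3% were higher and 33.9% lower. Neto1, a membrane protein that binds NMDA and kainate receptors, had 99.7 and 116 CPM in Pdgfra cells, against 4.57 and 4.27 CPM in Neurod2/Neurod6 cells, and was higher by 4.52 ± 0.11 (edgeR adjusted p = 4.47e-26). Slc7a10, a D-serine and glycine exchanger, was higher by 2.34 and Psat1, of serine synthesis, by 2.25. Nos1, neuronal nitric oxide synthase, which is tied to the receptor by its scaffold, was lower, at -5.66, with 1.23 and 1.66 CPM in Pdgfra cells, against 58.9 and 79.9 CPM. Lrp8, a reelin receptor that binds NMDA receptors, was lower, at -2.63 and Ptk2b, a tyrosine kinase, at -2.55. Of the 8 genes of glycine and D-serine handling, 6 were higher and none lower. Astroglial markers summed to 7997 and 7821 CPM in Pdgfra cells, with 4 of 9 over 2-fold above the other gates' median, against 1970 and 1720 CPM in Neurod2/Neurod6 cells, and their part in these differences was not tested.

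Aqp4 cells had 15 of the 38 genes higher and 18 lower than Neurod2/Neurod6 cells (list median -0.21, all genes 0.01), and by DESeq2 16 were higher and 15 lower. Of all genes, 36.7% were higher and 36% lower. Of the 12 scaffold genes 10 were lower and 2 higher, and of the 8 genes of glycine and D-serine handling 7 were higher and none lower. Slc7a10 had 122 CPM in each library of Aqp4 cells, against 3.34 and 4.42 CPM in Neurod2/Neurod6 cells, and was higher by 5.04 ± 0.13 (edgeR adjusted p = 6.74e-25). Slc1a3 and Slc1a2, the glial glutamate transporters, were higher by 4.60 and 3.92, and both also belong to the astroglial marker list. Nos1 was lower, at -5.77, the scaffold gene Dlg2 at -4.02 and the kinase subunit gene Camk2b at -3.69. Between Pdgfra and Aqp4 cells 18 were higher and 14 lower (list median 0.16, all genes 0.01, of which 34.9% were higher and 33.8% lower), against 14 and 14 by DESeq2: Dlgap2, a scaffold gene, was higher by 4.91, Neto1 by 4.04 and Dlg2 by 3.07, and Slc1a3, Slc1a2 and Slc7a10 were lower, at -3.19, -3.09 and -2.70.

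In Reln against Neurod2/Neurod6 cells 9 of the 38 were higher and 13 lower (list median -0.05, all genes -0.09, of which 25.4% were higher and 25.2% lower). Slc7a10 had 158 and 120 CPM in Reln cells and was higher by 5.13 ± 0.19 (edgeR adjusted p = 4.26e-20), near its level in Aqp4 cells. Astroglial markers of Reln cells summed to 1089 and 823 CPM, none over 2-fold above the other gates' median, while those of Aqp4 cells summed to 28669 and 29040 CPM. The part of astroglial RNA in the Slc7a10 level of Reln cells was not tested. Camk2a was higher by 1.83 and Dlg2 by 1.44, while Nos1 was lower, at -5.48, the scaffold gene Dlgap1 at -3.27 and Lrp8 at -2.41. The Camk2a call rests on 6 and 11 UMIs in Reln cells and 12 and 11 UMIs in Neurod2/Neurod6 cells. That is 5.22 and 7.75 CPM against 2.11 and 1.62 CPM, where C1qa cells had 3.17 and 3.23 CPM. Its Neurod2/Neurod6 level was thus not above that of free RNA. In Adarb2 cells 6 were higher and 7 lower (list median -0.05, all genes -0.08, of which 8.89% were higher and 11.3% lower), and 8 and 5 by DESeq2. The genes with the largest changes were Dlgap3 at 1.93, Camk2d at 1.87 and Neto1 at 1.36, and on the lower side Nos1 at -3.72, Camk2b at -1.83 and Camk2g at -1.10.

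Sst cells had 5 of the 38 higher and 2 lower than Neurod2/Neurod6 cells (list median -0.31, all genes -0.62, of which 2.79% were higher and 4.82% lower). By DESeq2 8 were higher and none lower. Neto1 had 169 and 188 CPM in Sst cells and was higher by 5.02 ± 0.48 (edgeR adjusted p = 3.55e-09), Dlgap2 by 4.96 and Nos1, with 477 and 1170 CPM, by 3.25 ± 0.23 (edgeR adjusted p = 5.16e-12). The kinase gene Fyn, at -1.10, and Lrp8, at -1.07, were called lower by edgeR alone. Against Adarb2 cells 6 were higher and 1 lower (list median -0.04, all genes -0.45, of which 2.93% were higher and 4.74% lower), with Nos1 higher by 6.97 and Neto1 by 3.66. By DESeq2 8 were higher and none lower, so the lower call, Fyn at -1.09, was lost. Camk2a was called higher as well, on 0 and 4 UMIs in Sst cells and 0 and 1 UMI in Adarb2 cells, a ratio of 54.8 (exact 95% interval 5.42 to 2698).

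Within gates, dividing Pdgfra cells had 6 of the 38 higher and 8 lower (list median -0.06, all genes -0.08, of which 13.9% were higher and 21.7% lower). DESeq2 called 5 higher and 3 lower, and edgeR without the replicate block 5 and 2, so the balance towards lower genes turned round. In the edgeR fit with the block, Shmt1, a serine and glycine enzyme, was higher by 2.33, Phgdh and Psat1 of serine synthesis by 0.49 and 0.48, and the scaffold gene Dlgap4, Grina and the glycine transporter gene Slc6a9 were lower, at -0.50, -0.45 and -0.38. Dividing Aqp4 cells had 4 higher and 16 lower (list median -0.39, all genes -0.19, of which 9.71% were higher and 21.9% lower), with Shmt1 higher by 2.93, Neto2 by 0.98 and Shmt2 by 0.47, and Shank1, Slc7a10 and Slc6a9 lower, at -2.32, -1.30 and -1.18. Eomes-positive cells had 2 higher and 9 lower (list median -0.20, all genes -0.02, of which 6.8% were higher and 6.61% lower), with Nos1 higher by 0.77 and Lrp8 by 0.30, and among the lower genes Camk2b at -2.95, Dlg2 at -1.94 and Shank1 at -1.04.

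The genes most like each subunit gene were ranked by Pearson's r of log2(CPM + 1) over the 12 sums of 6 gates and 2 libraries, among 9420 genes with a mean of at least 10 CPM. The sums of a library share their sorted pool, so r is given as a description. For Grin1 these were Clec2l (r = 0.98), Ptprn (r = 0.97), a protein of secretory granules, and Cacna1a (r = 0.96), a presynaptic calcium channel. Clec2l had 196 and 183 CPM in Reln cells, its highest level. For Grin2a they were Cpne5 (r = 0.98), Nos1 (r = 0.95) and Huwe1 (r = 0.95), for Grin2b Mir100hg (r = 0.96), 1810026B05Rik (r = 0.96) and the cadherin gene Cdh8 (r = 0.95), and for Grin3a the plexin gene Plxnc1 (r = 0.98), Bend4 (r = 0.94) and Arxes1 (r = 0.94). Grin2c and Grin2d, at means of 0.209 and 3.66 CPM, were below the minimum of 5 CPM for this ranking.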

How the data were processed

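Per the labels, pallial tissue of wild-type mice was pooled, and EdU-bright, propidium iodide-negative cells were captured with the 10x Chromium 3′ kit. What the authors deposited are unnormalised UMI counts for each gene in each barcode, written by Cell Ranger 6.0.2 per the file headers. Seurat 4.1.0, R 4.1.0 and mm10 are listed, without a role, in the submitters' processing notes. Strand use and the annotation release are not given in the sources used here. Labels do not say that the libraries come from separate pools. With the library as a block, p-values cover how far the differences between gates varied between these 2 samples. That spread may be technical.

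Each gate needed at least 3 UMIs of its marker (10 for Reln), Sst and Adarb2 gates also at least 1 UMI of Gad1 or Gad2. Its own marker aside, every gate allowed at most 1 UMI each of Pdgfra, Aqp4 and the sum of Neurod2 and Neurod6. Sst and Adarb2 gates allowed at most 1 UMI of each other's marker, and the remaining gates at most 1 UMI of Gad1 and Gad2 together. The Neurod2/Neurod6 and C1qa gates allowed up to 4 Reln UMIs. Other markers, C1qa among them, were not limited. Doublets were left in, apart from barcodes meeting more than 1 gate, and Scrublet in scanpy 1.11.5 marked 862 (7.68%) and 778 (7.10%) of the kept cells for an alternative. Counts were summed per library and gate and tested with edgeR 4.0.16 in R 4.3.3 (quasi-likelihood test, TMM, filterByExpr, Benjamini-Hochberg over all genes, called at 0.05). The library was the replicate block, since all sums of a library come from 1 sorted pool. One fit held 14 sums with 6 residual degrees of freedom and the fit with split gates held 20 sums with 9. The scripts were tested on simulated data with known rises. For Pdgfra against Neurod2/Neurod6 cells, 90 of 100 2-fold and 97 of 100 4-fold rises were recovered, with 9 false calls. For Sst against Neurod2/Neurod6 cells, 9 of 100 2-fold and 51 of 100 4-fold rises were recovered, with 18 false calls. An uncalled difference in Sst cells therefore says little. Alternatives included DESeq2 1.42.0, other gate limits and depths. Intervals (95%, Clopper-Pearson or exact Poisson) and the floor of 3 counts cover counting error only, and PCR copies are already merged by UMI.

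The 6 genes, the gates and the gene lists were chosen with earlier results of these data known. All 6 genes are named in each comparison, and from the list of 40 related genes up to 3 called genes with the largest change in each direction. For each of the 6 genes above 5 CPM on average, the 3 genes with the highest correlation are named. Grin2b exons overlap the counted genes Gm14329 and Gm26653, and Grin2d exons overlap Gm45441, so reads there could be split between them.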

Additional observations from a re-analysis of the deposited data

Results flagged for a closer look

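The effect of division on Grin3a differed between the glial gates. In Pdgfra cells the difference between dividing and non-dividing cells was -0.01 ± 0.06 (log2 fold change ± SE), and in Aqp4 cells it was -0.62 ± 0.12. An interaction term in the edgeR fit gave 0.60 ± 0.14 for the first minus the second (adjusted p = 0.00364 over all genes), with the same sign in both libraries by their CPM. For Grin1 the interaction was 1.82 ± 0.61 (edgeR adjusted p = 0.0655). Dividing cells were deeper in both gates, and the Aqp4 difference was -0.28 among cells of 3000 to 20000 UMIs; the part of depth in the interaction was not tested.

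Cells outside the gates, 5546 in replicate 1 and 5023 in replicate 2, held Grin UMIs above the level in C1qa cells. Grin1 averaged 14.1 CPM in them (13.8 and 14.5), against 1.27 and 0.923 CPM in C1qa cells. Grin2b averaged 47.1 CPM in them (47.1 in each library), against 4.44 and 5.08 CPM in C1qa cells. Grin3a averaged 40.4 CPM in them (36.4 and 44.4), against 0.635 and 4.15 CPM in C1qa cells. For these 3 genes the lower Poisson bound in ungated cells was above the upper bound in C1qa cells in both libraries. Ungated cells held 633 of the 862 barcodes that Scrublet marked as doublets in replicate 1 and 606 of 778 in replicate 2, and their part in these levels was not tested.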

How the results depend on the processing

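No log2 fold change that passed the test changed sign under any alternative run, for the 5 genes of the main fits. Of 583 values over 50 gene and comparison pairs, 537 kept their side of the threshold, or moved by at most 1 SE where no test was possible. The 537 include sign changes where neither run passed the test. An example is Grin3a in dividing Pdgfra cells, at -0.01 with edgeR and 0.03 with DESeq2. Of the rest, 7 lost the call, 3 gained one and 36 moved further. Gained calls were Grin2d in Aqp4 cells without Scrublet doublets (-1.38, edgeR adjusted p = 0.0442) and, in looser gates, Grin3a and Grin2a in Adarb2 cells (1.05 and -1.89, edgeR adjusted p = 0.0150 and 0.0192), all against Neurod2/Neurod6 cells. Grin2c, which is not in the 50 pairs, was tested when the filter on low counts was dropped. It was then called higher in Aqp4 than in Neurod2/Neurod6 cells and lower in Pdgfra than in Aqp4 cells, on few UMIs. Among cells of 3000 to 20000 UMIs, 1 Grin gene in place of 2 was called in Adarb2 cells, and in dividing Aqp4 cells 1 in place of 2, as also in stricter gates. Grin2d did not pass the filter on low counts among cells of 3000 to 20000 UMIs or, between unsplit gates, in looser gates, so its calls went untested there. Genes called fell to 1417 in stricter gates and 1697 without dividing cells for Adarb2 cells, against 2636, and for dividing Aqp4 cells to 2643 in stricter gates and 2660 among cells of 3000 to 20000 UMIs, against 4238. Fewer cells were tested in these settings. For dividing Pdgfra cells, DESeq2 called 2697 genes and edgeR without the replicate block 2619, against 4790 with the block. The block changed no call of a Grin gene: without it the numbers called were 5, 4, 2, 2 and 4 for Pdgfra, Aqp4, Sst, Adarb2 and Reln against Neurod2/Neurod6 cells. The cell shares depended on depth by construction: Grin3a in Pdgfra cells was 18.9% at 2000 UMIs, 31.9% at 4000 and 54.5% unthinned, and Grin2b in Neurod2/Neurod6 cells 30.4%, 45.4% and 62.7%, as means of the libraries. With single libraries, those shares ranged from 16.9% to 20.8% and from 28.9% to 31.9%, the Grin3a share of the mix in Pdgfra cells from 67.2% to 72.3%, and the Grin2b share in Neurod2/Neurod6 cells from 83.8% to 85.2%. With 1 library left out no residual degrees of freedom remained, so those values have no test. Their log2 fold changes are differences of log2 CPM with a small added count. The part of that count in the 36 moved values was not tested. Removal of shared barcodes and the Lhx6 gate were added after the data had been seen. The 31 Sst cells limit every statement on them.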
